A study of Mus musculus with 4 samples.

Results

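Newborn mouse lung kept in 95% oxygen (hyperoxia) was compared with newborn lung kept in room air, miRNA by miRNA. Levels came from quantitative PCR, in which the threshold cycle (Ct) is the cycle at which an assay's signal crosses a set line, so that an earlier Ct means more RNA. An assay entered the comparison when its Ct was 30 or below in both newborn libraries. This rule kept 405 of the 750 miRNA assays, 243 on the first of 2 assay cards and 162 on the second. Each assay's level is the Ct of the small nucleolar RNA snoRNA202 on the same card minus the assay's own Ct, a log2 value that rises with the amount of RNA. A difference is the level in hyperoxia minus the level in room air, and 1 log2 unit is 2-fold if amplification is perfect. Because assays amplify with unequal efficiency, levels of different assays give only an approximate order.

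The labels name no strain, allele or transgene for either newborn group. Pups less than a day old were placed in room air or in 95% oxygen for 72 h and were 3 days old at collection, and nursing mothers were exchanged daily between both atmospheres. The right lung was taken whole after flushing of the pulmonary circulation with saline. Each group has 1 library, and whether it holds 1 pup or a pool is not given, so no difference has a replicate check and none was tested. Adult mice 2 months old, exposed for 72 h to the same atmospheres, had 1 library per group too and are used only for setting values side by side.

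A miRNA is cut from a hairpin RNA that can yield a product from its 5′ arm and another from its 3′ arm. One arm usually accumulates and guides repression of messenger RNAs through its seed, bases 2 to 8. The other arm, often marked with a star in older names, is mostly degraded. Hairpins that lie close together are commonly cut from one primary transcript, and miRNAs with equal seeds form families with overlapping targets. In newborn lung, alveoli are still forming, and prolonged hyperoxia is known to injure endothelium and epithelium, bring in inflammatory cells and slow alveolar formation.

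The assays were matched by name to RefSeq entries of the GRCm38.p6 build: 354 of the 405 had a named hairpin, and 236 mouse-named assays had a mature sequence. The hairpins of miR-423, miR-338 and miR-673 are shown because their arms either moved together (miR-423) or parted most widely (miR-673 and miR-338), with the arms in capitals. The miR-423 hairpin lies at chr11:77078064-77078172 on the minus strand, inside the span of the protein-coding gene Nsrp1. The miR-338 hairpin lies at chr11:120014765-120014862 on the minus strand, inside the span of Aatk. The miR-673 hairpin lies at chr12:109571990-109572080 on the plus strand, inside the span of the imprinted gene Rtl1.
Mir423: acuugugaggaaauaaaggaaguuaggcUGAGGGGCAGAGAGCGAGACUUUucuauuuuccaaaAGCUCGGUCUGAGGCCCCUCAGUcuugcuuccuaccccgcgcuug
Mir338: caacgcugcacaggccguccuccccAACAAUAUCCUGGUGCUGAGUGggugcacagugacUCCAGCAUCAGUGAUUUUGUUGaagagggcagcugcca
Mir673: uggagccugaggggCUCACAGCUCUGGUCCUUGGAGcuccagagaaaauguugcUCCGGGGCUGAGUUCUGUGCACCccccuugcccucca

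Mature sequences of miRNAs that share a seed are shown because such relatives either moved together or parted, with the seed in capitals. Within each group the letters outside the seed differ, which is what lets a separate assay read each one.
miR-146a: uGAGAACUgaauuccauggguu
miR-146b: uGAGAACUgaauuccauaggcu
miR-221: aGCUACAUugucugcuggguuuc
miR-222: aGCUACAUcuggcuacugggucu
miR-132: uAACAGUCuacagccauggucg
miR-212: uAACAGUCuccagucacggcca
miR-193: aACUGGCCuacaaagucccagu
miR-193b: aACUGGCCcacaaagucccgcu
miR-200b: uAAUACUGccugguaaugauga
miR-200c: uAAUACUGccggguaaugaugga
miR-429: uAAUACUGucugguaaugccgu
miR-125a-5p: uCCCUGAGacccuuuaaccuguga
miR-125b-5p: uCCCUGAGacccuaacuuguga
miR-351: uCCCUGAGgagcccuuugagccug
miR-7a: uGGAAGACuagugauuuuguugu
miR-7b: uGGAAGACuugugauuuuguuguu
miR-489: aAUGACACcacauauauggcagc
miR-425: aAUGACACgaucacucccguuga

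After hyperoxia, 41 of the 405 assays were at least 2-fold higher (10.1%) and 26 were at least 2-fold lower (6.42%). Set against U6 of the same card in place of snoRNA202, the counts were 52 higher and 15 lower. The median difference over all assays was 0.11 log2, with an interquartile range from -0.21 to 0.46, and 247 assays (61.0%) lay within 0.5 log2 of 0. Above 0 lay 234 assays and below 0 lay 171. The order of levels was largely shared: 18 of the 20 most abundant assays and 44 of the 50 most abundant were the same in both libraries. Across the 405 assays, which share libraries, cards and the reference RNA, the levels correlated at Pearson r = 0.974 and Spearman rho = 0.975. The first card's median difference was 0.22 log2 (22 higher, 10 lower) and the second card's was -0.05 (19 higher, 16 lower). The star forms, 70 assays, had a median of -0.04 with 9 higher and 2 lower.

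**Figure D1:**
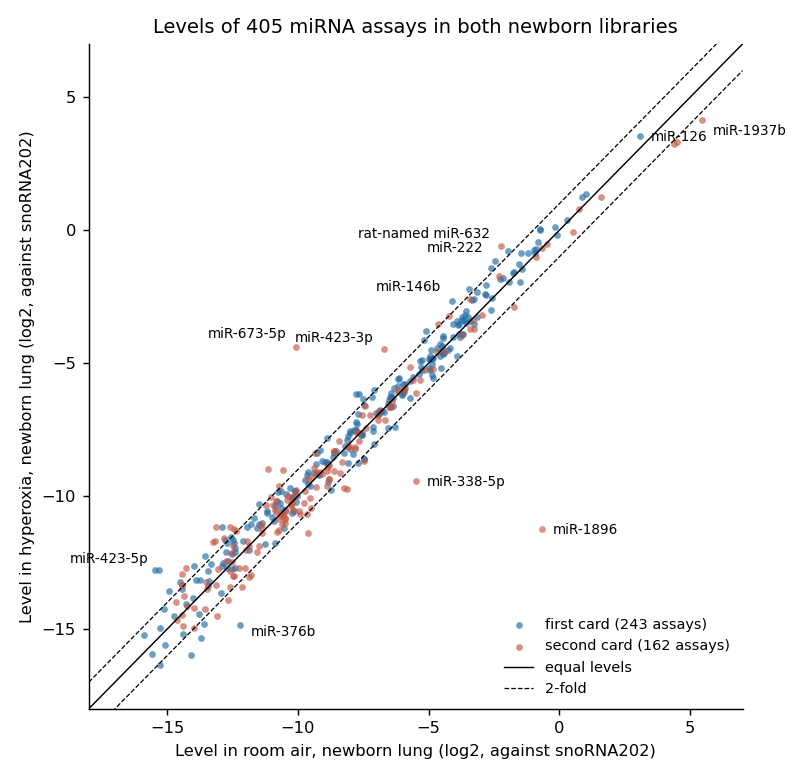
Level of each of the 405 assays in newborn room air (x axis) and newborn hyperoxia (y axis), log2 against snoRNA202 of the same card; points are single assays, blue for the first card and red for the second, the solid line marks equal levels and the dashed lines mark 2-fold. Most points lie between the dashed lines, while miR-673-5p lies far above them and miR-1896 and miR-338-5p lie far below.

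The only measure of error in these libraries is repetition within them. Control RNAs read on both cards gave differences of 0.08 and -0.50 log2 for the small nuclear RNA U6, 0.13 and -0.01 for snoRNA135, 0.48 and 0.09 for U87, and 0.37 and 0.31 for the RNA Y1, first card and second card. The gaps between cards of these 4 RNAs gave a difference a technical SD of 0.26 log2. For 32 miRNAs a mouse-named and a rat-named assay were both measured, and the gaps between their differences gave an SD of 0.49, with a median gap of 0.39 and 19 gaps under 0.5. These pairs were matched by name and not by sequence. Room air levels were close for miR-1 (-10.63 and -10.67) but far apart for miR-136 (-4.85 and -12.54) and miR-409-5p (-14.93 and -7.91). Whether both assays of a pair read the same RNA was not tested. Neither SD includes variation between animals.

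Repeat assays gave the same 2-fold difference for some miRNAs and not for others. For miR-489, a miRNA encoded in an intron of the calcitonin receptor gene Calcr, the mouse-named assay was 1.32 higher and the rat-named assay, on the other card, 1.54 higher. The star form miR-125b* was 1.43 higher on the mouse-named assay and 1.49 higher on the rat-named one. For miR-146b, a target of NF-kB, the values were 1.47 and 0.82, and for miR-339-3p 0.88 and 1.09. Both assays were at least 2-fold higher for miR-489 and miR-125b*, while for miR-146b and miR-339-3p 1 assay was and the other lay below 2-fold with the same sign.

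For miR-200c, a keeper of epithelial identity, the mouse-named assay gave 1.21 and the rat-named assay 0.07. For miR-409-5p, from an imprinted cluster, they gave 1.35 and -0.53, and the mouse-named assay crossed later. For miR-214 they gave -0.23 and 0.98, for miR-292-3p 0.35 and 1.56, for miR-190b -0.75 and 0.69, and for miR-10b -0.42 and -1.21. In 0 of these 6 miRNAs were both assays at least 2-fold apart in the same direction; the assays of miR-200c, miR-292-3p and miR-10b had the same sign, and those of the other 3 had opposite signs. Of the other repeats, miR-1 was at 0.83 and 0.23, miR-136 at -0.72 and 0.07, miR-381 at -0.64 and 0.18, miR-200b at 0.73 and -0.11, miR-223 at 0.47 and -0.34, and miR-551b at 0.35 and -0.32. miR-28* was at 0.82 and 0.39, miR-350 at 0.44 and 0.58, miR-20b at 0.30 and 0.50, and miR-224 at 0.21 and 0.51.

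**Figure D2:**
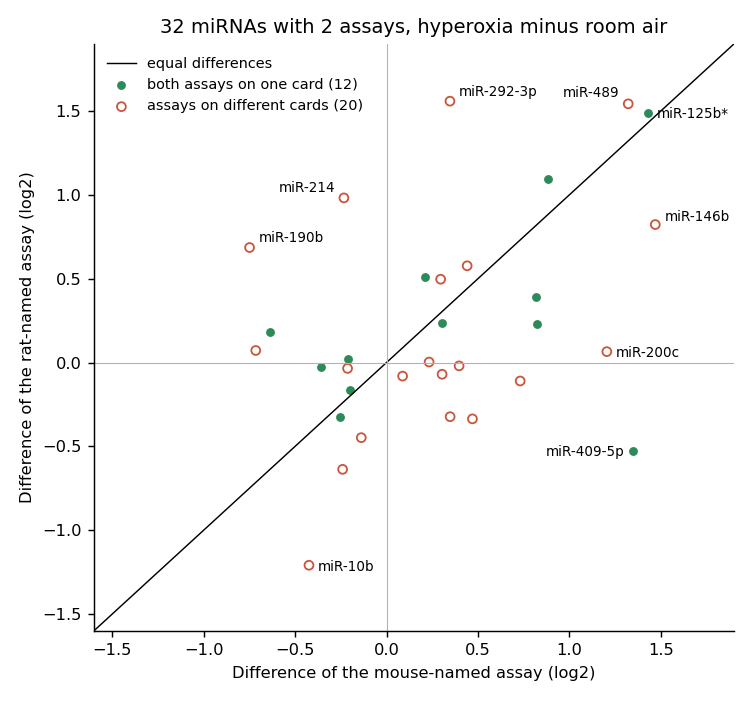
Difference between newborn hyperoxia and room air (log2) for 32 miRNAs measured with a mouse-named assay (x axis) and a rat-named assay (y axis); filled green points have both assays on one card, open red points on different cards, and the line marks equal differences. miR-489 and miR-125b* lie near the line at over 1 log2 unit, whereas miR-200c, miR-409-5p and miR-292-3p lie far from it.

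The share of assays at least 2-fold apart depended on how early the assay crossed. It was 14.9% of 67 assays with a mean Ct up to 18, 10.4% of 115 between 18 and 22, 12.6% of 135 between 22 and 26, and 31.8% of 88 between 26 and 30. Of the 41 higher assays 18 had a mean Ct over 26, and of the 26 lower assays 10 did. On the first card the earliest class held 5 higher and 0 lower assays of 54; on the second card it held 1 higher and 4 lower of 13.

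**Figure D3:**
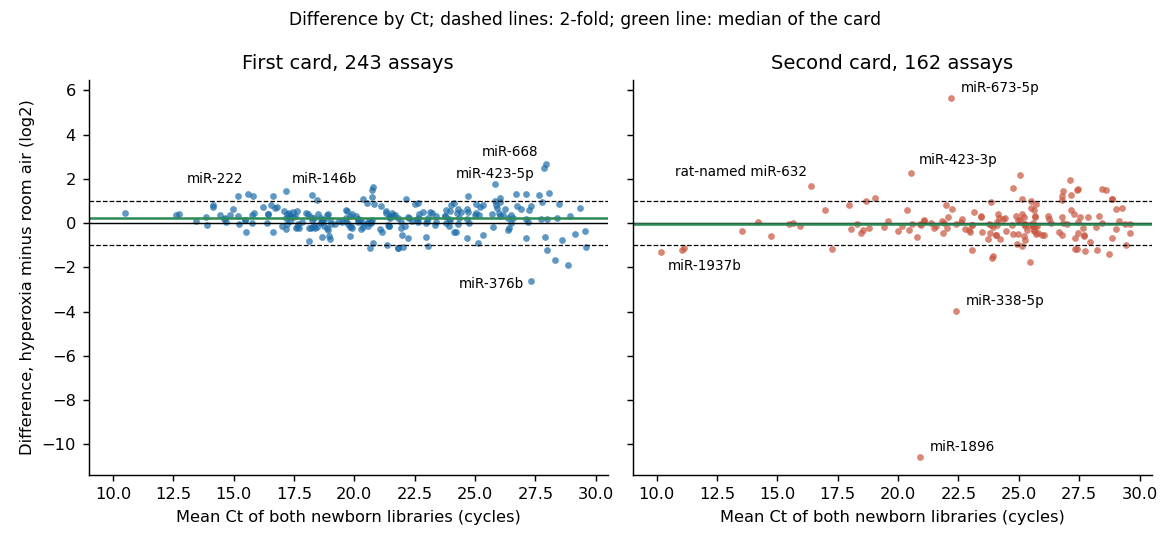
Difference between newborn hyperoxia and room air (log2, y axis) against the mean Ct of both newborn libraries (cycles, x axis) for the first card (left, 243 assays) and the second card (right, 162 assays); dashed lines mark 2-fold and the green line the card's median. The spread widens at a mean Ct over 26, where 31.8% of assays were 2-fold apart, and the cards' medians are 0.22 and -0.05.

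Of the 10 assays with the highest levels in room air, 6 lay within 0.5 log2 between libraries. miR-126, the endothelial miRNA that supports vessel integrity, was at 3.07 in room air and 3.54 in hyperoxia. Its other arm, miR-126-5p, was at -0.19 and 0.10. miR-24, from the miR-23/27/24 clusters of vessels, was at 1.00 and 1.35, and miR-16, a brake on the cell cycle, was at 0.86 and 1.25. miR-30c was at 0.29 and 0.38. Rat-named miR-223, a miRNA of myeloid cells, was at 1.57 and 1.24, and rat-named miR-200c at 0.74 and 0.80. Close behind these, miR-484 was at -0.76 and 0.04 and miR-146a at -0.73 and -0.01, both above 0.5 in difference.

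The 3 assays with the highest levels in room air were short RNAs on the second card, lower in hyperoxia by more than 2-fold: miR-1937b at 5.45 and 4.13, miR-1937c at 4.50 and 3.31, and miR-2134 at 4.39 and 3.25. miR-1274a was at -1.73 and -2.88, miR-2138 at -8.23 and -9.70, and miR-720 at 0.50 and -0.09. These entries were later dropped from miRBase, several of them as fragments of transfer RNA. All 6 sit on the second card, on which U6 differed by -0.50 against snoRNA202. Set against U6 of the same card, miR-1937b was at -0.82, miR-1937c at -0.69, miR-2134 at -0.63, miR-1274a at -0.65 and miR-2138 at -0.97, so that none of these 5 was 2-fold lower. Of the 26 lower assays 12 were within 2-fold against U6, these 5 among them. The part of the reference RNA in these values was not tested.

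miR-673-5p, from the imprinted Dlk1-Dio3 region, had the largest positive difference. Its Ct was 25.4 in room air and 19.0 in hyperoxia, which gives levels of -10.08 and -4.41 and a difference of 5.67 log2 (50.9-fold). In the adult libraries its Ct was 27.6 without and 27.7 with hyperoxia, later than in either newborn library. On that card snoRNA202 crossed at 13.7 and 13.8 in the adults, earlier than in the newborns. Newborn room air therefore also lay above both adult levels, and newborn hyperoxia was the highest. An assay named for rat miR-673 went the other way, at -7.47 and -8.59, but it gives no independent reading: its Ct equals that of rat-named miR-742 in both newborn libraries, 21.5 and 22.1, and neither crossed in the adults.

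Both arms of miR-423 were at least 4-fold higher. miR-423-5p was at -15.31 in room air and -12.79 in hyperoxia, a difference of 2.51 (5.70-fold), at a Ct of 29.4 and 26.3. miR-423-3p, on the other card, was at -6.71 and -4.46, a difference of 2.24 (4.73-fold). No other hairpin had both measured arms at least 2-fold apart between the newborn libraries. In adults miR-423-3p was at -1.73 and miR-423-5p at 2.75, the latter with a Ct of 33.2 in adult room air.

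The higher set held 9 assays of early Ct (mean up to 20). Rat-named miR-632 was at -2.24 and -0.58. miR-146b was at -4.12 and -2.65, and miR-222, which is expressed in vessel walls, was at -2.48 and -1.16. miR-193b was at -3.45 and -2.23, miR-125a-5p at -2.62 and -1.41, and miR-200c at -1.97 and -0.77. miR-133a, a miRNA of striated muscle, was at -5.09 and -3.80, miR-503* at -4.66 and -3.54, and miR-132, a target of the transcription factor CREB, at -5.16 and -4.13. The 9 differences lay between 1.04 and 1.66 log2, and the repeat assays of miR-146b and miR-200c read lower, as given above. Against U6, miR-132 was within 2-fold at 0.95.

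Of middle abundance, miR-34a, a target of p53, was at -7.52 and -6.34, and miR-365, encoded beside miR-193b, was at -7.66 and -6.18. miR-667 and miR-676 were at -7.79 and -6.15 and at -7.10 and -6.02. The later assays were led by miR-668 at -15.47 and -12.78, miR-467a* at -11.16 and -8.98, miR-29c* at -13.13 and -11.18, miR-501-3p at -12.92 and -11.16 and miR-706 at -10.59 and -9.01. The well called miR-467a* here carries an assay name without the star, and the star comes from the table's miRBase column. Rat-named miR-292-3p was at -14.27 and -12.71, and rat-named miR-204* at -14.42 and -12.92.

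miR-1896 had the largest difference of all, at a level of -0.68 in room air and -11.24 in hyperoxia. Its Ct of 25.9 in newborn hyperoxia was close to the 27.6 and 27.2 of the adult libraries, so only the newborn room air library was high. miR-338-5p was at -5.48 and -9.44, a difference of -3.96 (15.5-fold lower), against a Ct of 22.6 and 22.7 in the adults. miR-376b was at -12.23 and -14.85. miR-1894-3p was at -9.62 and -11.39, miR-297c at -14.09 and -15.99, and human-named miR-197 at -13.69 and -15.35.

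miR-196a, encoded in Hox clusters, was at -8.14 and -9.73. miR-883b-5p was at -13.08 and -14.49, and miR-1188, from the Dlk1-Dio3 region, at -12.15 and -13.40. miR-7a was at -13.59 and -14.81, miR-183* at -7.49 and -8.70, miR-324-5p at -7.70 and -8.76, and miR-206, a skeletal muscle miRNA, at -9.67 and -10.69. Against U6, miR-883b-5p (-0.91), miR-1188 (-0.75), miR-183* (-0.70) and miR-206 (-0.52) were within 2-fold. miR-1896, miR-338-5p and miR-376b were the only assays at least 4-fold lower, and 5 were at least 4-fold higher: miR-673-5p, miR-668, both miR-423 arms and miR-467a*.

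The arms of a hairpin come from 1 precursor, and 76 pairs of arms from 75 hairpins or hairpin groups were measured. The difference had the same sign in 41 pairs. The arms' differences lay within 0.5 log2 of each other in 39 pairs, 0.5 to 1 apart in 22 and at least 1 apart in 15, with a median gap of 0.47. The median gap was 0.47 for 20 pairs on 1 card and 0.49 for 56 pairs across cards. In 21 pairs at least 1 arm was 2-fold apart between libraries, and in 1 pair, miR-423, both were. The arm with less signal in room air was 2-fold apart in 12 pairs and the arm with more signal in 10. As background, 10.1% of the full set of 405 rose 2-fold or more and 6.42% fell as much. In that set 234 differences lay above 0 and 171 below. Whether the arm counts depart from this background was not tested.

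The widest gap was that of miR-673, where miR-673-5p was 5.67 higher and miR-673-3p was at -0.53. For miR-338, miR-338-5p was at -3.96 while miR-338-3p was at 0.87, on levels of -15.11 and -14.24, so that the ratio of the 5p to the 3p signal went from 9.63 to 4.80 log2. For miR-376b the arms were at -2.62 (miR-376b) and -0.20 (miR-376b*). For miR-29c, whose family represses collagen genes, the guide arm was at 0.13 and miR-29c* at 1.95. The guide arm of miR-467a was at 0.05 against 2.18 for its star form.

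For miR-183, from a cluster of sensory and epithelial cells, the guide arm was at 0.64 and miR-183* at -1.21. Other arms parted with less distance. miR-409-3p was at -0.24 and miR-409-5p at 1.35, and miR-125b-5p at -0.14 and miR-125b* at 1.43. The rat-named miR-409-5p assay, which crossed earlier than the mouse-named one, was at -0.53. miR-146b was 1.47 higher while miR-146b* was at -0.03, and miR-503* was 1.12 higher while miR-503 was at -0.25. In contrast miR-22, a miRNA of muscle and blood cells, was at 0.96 with a level of -9.36 in room air and -8.39 in hyperoxia, and miR-22* was at 1.25 with -12.84 and -11.59. The arms of miR-342 were both above 0, at 0.69 (3p) and 1.22 (5p), as were those of miR-582 at 0.78 and 0.95. The wells of miR-345-3p and miR-345-5p hold equal Ct in both newborn libraries, 24.2 and 23.4, but not in the adults, and so give no independent pair.

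**Figure D4:**
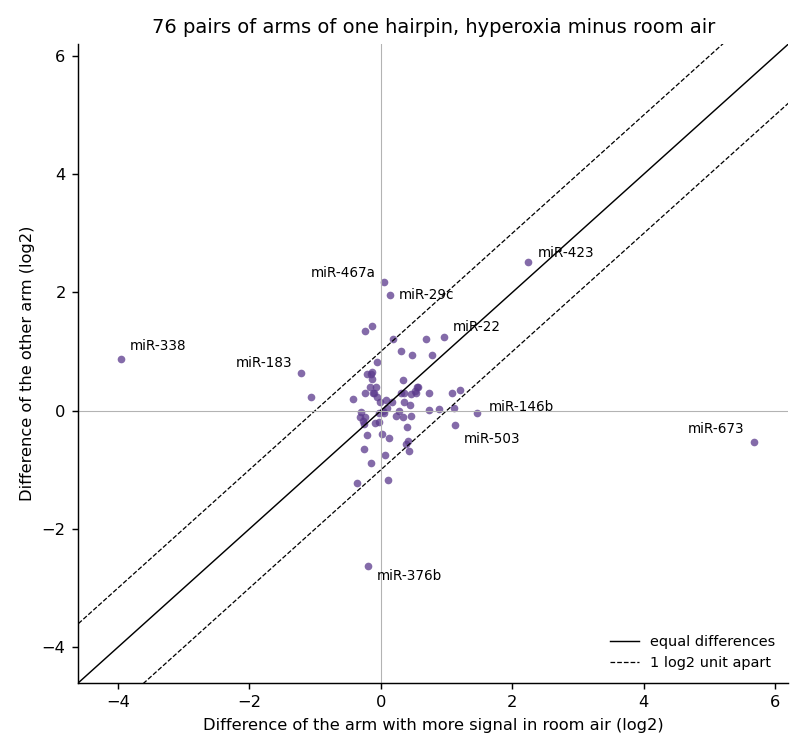
Difference between newborn hyperoxia and room air (log2) for 76 pairs of arms of one hairpin; the x axis shows the arm with more signal in room air and the y axis the other arm, the solid line marks equal differences and the dashed lines 1 log2 unit apart. miR-423 and miR-22 lie near the solid line, and miR-673, miR-338, miR-376b, miR-467a and miR-29c lie outside the dashed lines.

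Hairpins within 10 kb of each other on 1 strand were taken as a cluster, and 37 clusters had at least 2 measured assays. Their median differences centred on 0.09, against 0.11 for all assays, and 6 lay over 0.5 and 2 below -0.5. All 8 of these have 2 measured assays; of the 21 clusters with 3 or more, 0 had a median beyond 0.5 in either direction. In 10 clusters all assays had the same sign.

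The cluster with the highest median was Mir193b with Mir365-1, at chr16:13449523-13453926, where miR-193b was 1.22 and miR-365 1.48 higher. It was the only cluster with all its measured assays 2-fold higher, although miR-365 is also encoded by Mir365-2 on chr11 beside Mir193a, whose product miR-193 was at 0.46. Mir221 with Mir222, at chrX:19146294-19146971, had miR-222 at 1.32 and miR-221 at 0.90, on levels of -7.16 and -6.26 for miR-221. Mir212 with Mir132, at chr11:75173388-75173747, had miR-132 at 1.04 and miR-212 at 0.57, and miR-212 went from -5.71 to -5.14. Mirlet7f-2 with Mir98 had let-7f at 0.78 and miR-98 at 0.73, although let-7f is also encoded by Mirlet7f-1 on chr13. In Mir141 with Mir200c, miR-200c was at 1.21 and miR-141 at 0.13.

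On the X chromosome the cluster of miR-188, miR-362, miR-500, miR-501 and miR-532, in an intron of the chloride channel gene Clcn5, had 7 of 7 measured assays above 0. Their median was 0.44, from miR-362-5p at 0.33 to miR-501-3p at 1.76, and 1 was 2-fold higher. Of all 405 assays 234 were above 0. On the first card, which holds 6 of these 7, 166 of 243 were above 0, against 68 of 162 on the second. Below 0 lay Mir144 with Mir451a, at chr11:78073005-78073241, where miR-451 was at -0.91 and miR-144 at -0.69, and Mir1188 with Mir370 at -1.25 and -0.62.

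The imprinted Dlk1-Dio3 region on chr12, active in fetal and newborn tissue, was not uniform. Its proximal cluster around Rtl1 had 11 measured assays with a median of 0.34, from miR-127 at -0.82 and miR-136 at -0.72 to miR-434-5p at 0.61 and miR-673-5p at 5.67. The distal cluster, which runs from miR-379 to miR-410, had 31 assays with a median of -0.13. In that cluster 12 assays were above 0, 4 were 2-fold higher (miR-668, miR-667, miR-409-5p and miR-369-5p) and 1, miR-376b, was 2-fold lower. The others lay within 2-fold, with miR-154* the lowest of them and miR-539, at 0.40, the highest. The rat-named miR-409-5p assay, outside the cluster counts, was at -0.53. Among all 405 assays 10.1% were 2-fold higher and 6.42% 2-fold lower. In the miR-17-92 cluster, which drives proliferation, 9 assays had a median of 0.17, with miR-17* the highest, at least 2-fold up, and miR-20a the lowest at -0.42. The rodent repeat cluster of miR-297, miR-466, miR-467 and miR-669 relatives had 14 assays with a median of 0.10, from miR-297c at -1.90 to miR-467a* at 2.18.

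Of miRNAs with a known seed, 88 assays fell into 30 seed families of at least 2 members. In 10 families at least 1 member was 2-fold apart, and in 0 were all members, beside 10.1% of all assays 2-fold higher and 6.42% 2-fold lower. Among the 12 families with 3 or more members, 1 had all members above 0: miR-200b, miR-200c and miR-429, the epithelial family shown above, at 0.73, 1.21 and 0.80. miR-200b went from a level of -3.36 to -2.63, and miR-429 ended at -2.34. As given above, the rat-named assays of miR-200b and miR-200c, on the second card, were at -0.11 and 0.07. The relatives miR-200a and miR-141, whose seed differs by 1 base, were at 0.40 and 0.13.

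Several seed pairs lay on one side of 0. The NF-kB targets miR-146a and miR-146b were at 0.72 and 1.47, and miR-146a went from -0.73 to -0.01. The pair miR-193 and miR-193b was at 0.46 and 1.22. miR-7a and miR-7b were at -1.21 and -0.79, on levels of -14.41 and -15.19 for miR-7b. Other families parted: miR-125a-5p was 1.21 higher while miR-125b-5p was at -0.14 and miR-351 at -0.20, and miR-489 was 1.32 higher while miR-425 was at 0.07. In the seed family of miR-34 and miR-449, miR-34a was at 1.19, miR-449a, a miRNA of multiciliated cells, at 0.63, miR-34b-5p at 0.29 and miR-449c at -0.45. The let-7 seed family, known for promoting differentiation, had 10 members with a median of 0.28, 7 above 0 and 0 at least 2-fold apart. The 6 members with the seed of miR-17 had a median of 0.24, and the 6 with that of miR-16 a median of -0.18.

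**Figure D5:**
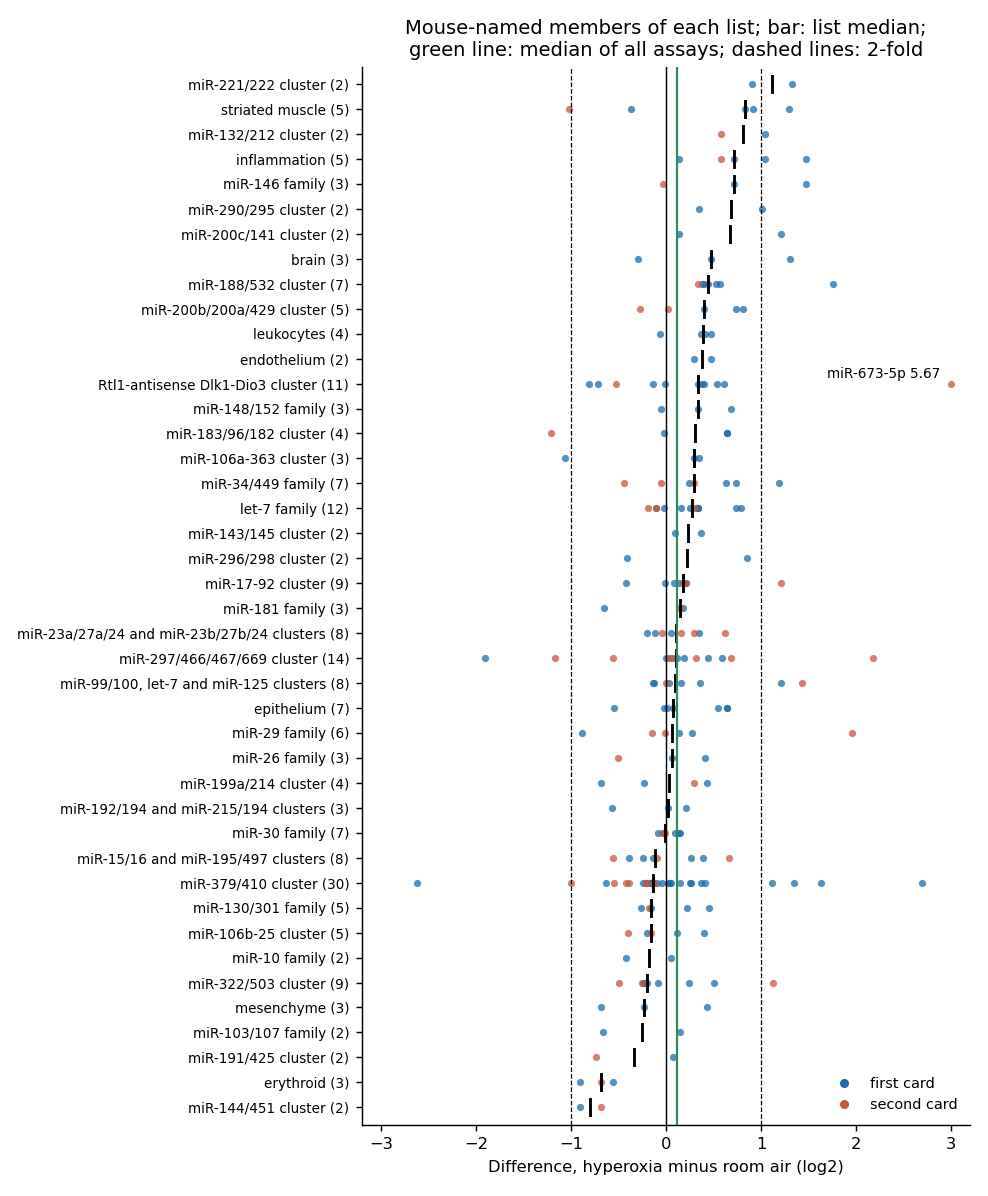
Difference between newborn hyperoxia and room air (log2, x axis) of the mouse-named members of each cluster, family and cell type list with at least 2 measured members, ordered by median; points are assays (blue first card, red second card; miR-673-5p is drawn at 3 with its value), black bars are list medians, the green line is the median of all 405 assays and the dashed lines mark 2-fold. The clusters of miR-221 with its neighbour and of miR-132 with its neighbour the striated muscle and inflammation lists and the miR-146 family lie highest, and the erythroid list and the cluster of miR-144 with miR-451 lie lowest.

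Lists of miRNAs known from particular cells or responses were read against the 0.11 median of all assays and its 10.1% and 6.42% of 2-fold differences. The first card's median was 0.22 and the second card's -0.05. All listed leukocyte, endothelial, smooth muscle, epithelium and fibroblast assays are on the first card, as are 4 of the 5 inflammation assays. In bulk lung, fewer cells of a type and less RNA per cell cannot be told apart. Of 5 measured miRNAs linked to inflammation, 5 were above 0 and 2 were 2-fold higher (miR-146b and miR-132), with a median of 0.72. The lowest, miR-21, was at 0.13. Against U6, miR-132 was within 2-fold at 0.95, and the rat-named miR-146b assay was at 0.82. The summed signal of the 5, in units of snoRNA202, was 0.740 in room air and 1.27 in hyperoxia. Most of it came from miR-146a, at levels of -0.73 and -0.01, which was less than 2-fold higher. Outside the Ct limit, miR-147 of this list had a Ct of 35.1 in room air and did not cross in hyperoxia, and miR-155 is given below. The 4 leukocyte assays had a median of 0.39, with miR-223 at 0.47, miR-142-5p at 0.41, miR-150 at 0.36 and miR-142-3p at -0.07, and a summed signal of 0.678 and 0.877. That list and sum hold the mouse-named miR-223 assay, at a room air level of -2.29. The rat-named miR-223 assay had a higher room air level, 1.57, and went the other way, at -0.34. The 3 erythroid assays were all below 0 (median -0.69): miR-486 at -0.56, and miR-144 and miR-451 as in their cluster, with 0 at 2-fold and a summed signal of 0.0450 and 0.0289. The part of blood left in the vessels in these values was not tested.

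Of 5 striated muscle assays, miR-133a was 1.29 higher, miR-133b was at 0.92, miR-1 at 0.83, miR-208b at -0.37 and miR-206 at -1.03. Outside the Ct limit, the cardiac miR-208a went from a Ct of 30.7 to 28.3 and miR-499 from 36.9 to 29.2. The summed signal of the 5 was 0.0318 and 0.0746, of which miR-133a alone made up 0.0293 and 0.0717, and the part of heart or other muscle tissue in it was not tested. Of miRNAs known from brain, miR-138 was at 0.47, miR-9 at -0.30 and miR-137 at 1.30, the last on a Ct of 27.6 and 25.8, while miR-124 did not cross in room air and had a Ct of 29.8 in hyperoxia. The liver miRNA miR-122 had a Ct of 36.0 in room air and 27.6 in hyperoxia. Endothelial miR-126 and its other arm were at 0.47 and 0.29, smooth muscle miR-143 and miR-145 at 0.09 and 0.36, and miR-210, which low oxygen induces, at 0.12, a sign that changed with other reference RNAs. The 7 airway and alveolar epithelium assays had a median of 0.07, from miR-205 at -0.55 to miR-183 at 0.64, a median whose sign also changed with the reference. This list leaves out miR-200a, miR-200b, miR-200c, miR-141 and miR-429, which were planned as epithelial markers. Their mouse-named assays were at 0.40, 0.73, 1.21, 0.13 and 0.80, and the rat-named assays of miR-200b and miR-200c at -0.11 and 0.07. The 3 fibroblast assays had a median of -0.23, from miR-199a-5p at -0.69 to miR-199a-3p at 0.43. That median is the mouse-named miR-214 assay, whose rat-named repeat was at 0.98. As a check of the tissue label, miR-126 of vessels and miR-449a of ciliated airway (levels -1.48 and -0.85) crossed early in both libraries. miR-122 and miR-124 crossed late or not at all in room air but before cycle 30 in hyperoxia, and miR-138, miR-9 and miR-137 of the brain list crossed before cycle 30 in both, so those lists do not set lung apart here.

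Some assays crossed by cycle 30 in only 1 newborn library and stand outside the 405. In hyperoxia alone there were 37, of which 12 had a Ct over 35 in room air. In room air alone there were 9, of which 3 had a Ct over 35 in hyperoxia. Both counts use raw Ct. In the hyperoxia library snoRNA202 itself crossed earlier, at 13.5 against 14.1 on the first card and 14.6 against 15.3 on the second. Some of the 37 had small differences once set against snoRNA202, such as rat-named miR-743a at 0.35 and miR-1928 at -0.20. The part of this offset in the counts was not tested. Ct 35 was taken as the limit of detection, so a difference from a later Ct is a bound. miR-155, induced in activated leukocytes, did not cross in room air and had a Ct of 19.7 in hyperoxia, at least 14.83 log2 higher; its Ct was 19.6 and 18.9 in the adult libraries. miR-1951 was at least 8.22 higher and miR-139-3p at least 7.03 higher. miR-463* went from a Ct of 32.6 to 24.5, rat-named miR-880 from 34.5 to 25.6, and miR-511, a macrophage miRNA, from 31.5 to 26.7.

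In the other direction, miR-191 had a Ct of 14.4 in room air and did not cross in hyperoxia, a difference of -21.10 log2 or beyond, while its Ct was 13.6 and 13.3 in the adults. Its cluster neighbour miR-425, from the same Dalrd3 transcript, was at 0.07. miR-449b had a Ct of 17.8 in room air and 38.9 in hyperoxia, and did not cross in either adult library; its neighbours miR-449a and miR-449c were at 0.63 and -0.45. miR-1971 went from a Ct of 26.3 to 33.3, miR-671-5p from 26.5 to 31.0, miR-1982.2 from 27.2 to 31.8 and miR-2136 from 28.4 to 30.9. Each of these values rests on 1 well.

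The Ct limit itself decided close cases. Just inside it lay rat-named miR-494 (Ct 29.9 in room air, difference -0.04), rat-named miR-190b (difference 0.69) and miR-669c (difference 0.68). Just outside lay miR-496 (30.1 and 0.97), miR-196b (30.1 and 1.75) and rat-named miR-743a (30.1 and 0.35). By cycle 30, 414 miRNA assays had crossed in newborn room air and 442 in newborn hyperoxia, counted on raw Ct without correction for the earlier snoRNA202 in hyperoxia.

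Under the same rule in the adult pair, 6 assays were at least 2-fold higher with hyperoxia (1.56%) and 19 at least 2-fold lower (4.95%). The lower ones include miR-511 (-15.71), miR-582-3p (-8.35) and miR-574-3p (-4.32), which lie in the same row of the first card. Several other wells of that row did not cross in adult room air but crossed in adult hyperoxia, such as miR-532-5p at a Ct of 19.1. Whether wells of that row failed was not tested. Of the 41 assays higher in newborns, 32 were measured in the adults, and 2 were 2-fold higher there (miR-1944 at 1.34 and miR-342-5p at 1.02) and 3 were 2-fold lower (miR-423-3p, miR-200c and miR-706). The median adult difference of these 32 was -0.14 log2, beside -0.23 over all adult assays that passed the rule (first card -0.31, second card -0.15). Of the 26 assays lower in newborns, 22 were measured in the adults, of which 0 were higher and 2 lower, miR-7a at -2.02 and miR-2138 at -1.96, with a median of -0.35. Side by side, newborn and adult differences were 1.47 and -0.15 for miR-146b, 1.32 and -0.38 for miR-222, 1.22 and -0.14 for miR-193b, 1.19 and 0.10 for miR-34a, and 1.29 and -0.57 for miR-133a. The difference between newborn and adult responses has no test here.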

How the data were processed

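Lung RNA of 4 groups, 1 library each, was read on 2 cards; 750 wells hold miRNA assays and 18 hold controls. Per the labels' protocols, Megaplex primer sets served for reverse transcription and preamplification before TaqMan PCR; the sources used here do not give software, threshold or baseline. The authors deposited Ct values and Ct minus snoRNA202, both on a log2 scale, per the file headers; a well without crossing holds 40. Levels here are snoRNA202 of the own card minus Ct, computed with Python 3.11.15, pandas 2.3.3 and numpy 2.4.6. With 1 library per group there is no test. Names come from the table's miRBase column, except 2 cut entries, read from the assay name as miR-125b-5p and miR-434-5p. Named are the 12 highest and 12 lowest differences, the 10 most abundant assays, list extremes, the 10 widest arm gaps, repeat assays, one-sided assays and those nearest the Ct limit; other assays named were chosen after their values were seen. Members, lists and this rule were chosen with earlier results of these data known. Calculations were tested on simulated data.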

Additional observations from a re-analysis of the deposited data

Results flagged for a closer look

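For 3 assays the newborn and adult pairs were at least 2-fold apart in opposite directions, with 1 library on each side, and this difference was not tested. miR-423-3p was 2.24 log2 higher after hyperoxia in newborns and at -1.73 in adults. miR-706 was 1.58 higher in newborns and at -1.23 in adults. miR-200c was 1.21 higher in newborns and at -1.26 in adults, while its rat-named assay was at 0.07 in newborns.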

How the results depend on the processing

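The median difference of 0.11 log2 ranged over the alternatives run from -0.05 (second card alone) to 0.25 (U6), so its sign was not kept. These moves were below the technical SD of 0.26, but that SD belongs to 1 assay and is a loose yardstick for a median. Centring each library on its mean sets the mean difference to 0 in advance. The counts of 41 higher and 26 lower assays stayed within 1.5 times under snoRNA135, both small nucleolar RNAs, card centring, library centring, the deposited delta Ct, mouse-named assays and a Ct limit of 28. With U6 the counts were 52 and 15. With a Ct limit of 25 the counts were 15 higher and 13 lower, and with 35 they were 64 and 40. At 1.5-fold they were 82 and 49, and at 4-fold 5 and 3. The first card alone gave 22 and 10, the second card 19 and 16. With wells of equal Ct counted once, chosen after seeing the data, they were 40 and 25. Under every reference tried, 36 of the 41 higher and 14 of the 26 lower assays stayed at least 2-fold apart. Of the higher assays, miR-132, miR-369-5p, miR-676, miR-295 and rat-named miR-339-3p did not. A change of reference shifts all assays of a card by the same amount, at most 0.50 log2 here. The sign of a 2-fold difference could therefore not change, and kept signs are no check. The deposited delta Ct, which also uses snoRNA202, gave the same counts of 41 and 26. The miR-196 median of -1.59, from miR-196a alone, was 0.0815 with a Ct limit of 35, where miR-196b enters. Of 46 list medians, 4 moved by more than the technical SD with U6, 7 with a Ct limit of 25 and 4 with 35. With U6, 67 of 164 named assays moved by more than that SD, and 0 under the other references. Those 67 are the named assays of the second card, where the U6 shift was 0.50 log2 against 0.08 on the first. Such counts follow from the card shifts and do not check single assays.

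No paired analysis was possible because each group has 1 library. Animals are not replicated, so no difference can be set against variation between them; late assays and single wells are the least certain.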
